A study of Mus musculus with 12 samples.

Results

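Microglia are the resident macrophages of the brain, and 33 genes of their identity and activation were followed in the hippocampus of mice with and without pilocarpine-induced seizures. The genes were chosen by symbol: 12 homeostatic genes that mark surveying microglia, 8 genes of the myeloid lineage, and 13 genes of sensing and activation. Where a gene has several probe sets, the brightest on average was to be taken. All 33 genes were present, of 19938 genes with a probe set of their own, and each had exactly 1 such probe set.

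In the healthy brain microglia survey the tissue with fine processes and carry the fractalkine receptor CX3CR1 and the ADP receptors P2RY12 and P2RY13, through which they respond to neurons and to released nucleotides. The cytokine receptor CSF1R keeps them alive, and the transcription factors PU.1 (Spi1), IRF8 and SALL1 hold their identity. When activated, they lower several of these surface genes and raise genes of phagocytosis, complement, Fc receptors and Toll-like receptors. Seizures are known to recruit microglial processes to neurons and to activate the cells over hours and days.

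Hippocampal RNA of 12 mice in 4 groups of 3 was hybridized to Affymetrix Mouse Gene ST arrays, with an array for each mouse. Levels are robust multiarray average (RMA) values on a log2 scale, on which a difference of 1 is a doubling. All animals were C57/Bl6 mice of 7 to 10 weeks that carried the tamoxifen-inducible Cre recombinase CaMKCreERT2 and had received tamoxifen. Heterozygous mice had 1 floxed Srf allele, and Srf mutants had both alleles floxed. The Cre is driven by the Camk2a promoter, which is active in glutamatergic forebrain neurons, so that Srf was targeted in neurons and not in microglia. Heterozygous controls and mutant controls were injected with Ringer solution. Heterozygous mice with status epilepticus (SE, continuous seizures) received 335 or 350 mg/kg pilocarpine, a muscarinic agonist, after methyl scopolamine, and were analysed after 40 min of SE. Pilocarpine-injected mutants also received 335 or 350 mg/kg after methyl scopolamine. They had grade 4 seizures but no SE, so that a difference between the responses of the genotypes cannot be told apart from the absence of SE. The labels name the heterozygous mice wild-type or control and call the injected mutants mice with seizure, and the study's account of the groups was followed. When these mutants were harvested is not given in the sources used here.

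Median levels of the 12 arrays were between 6.78 and 6.86 (log2). Srf was at 9.53 or more on every heterozygous array and at 8.96 or less on every mutant array. Xist, a marker of females, was above 9 on 1 of 3 heterozygous control arrays, 0 of 3 heterozygous SE arrays, 2 of 3 mutant control arrays and 1 of 3 arrays of mutants with pilocarpine, so that sex was not balanced. Of the 33 microglial genes, 28 had a mean above the median of the arrays. The other 5, Ptprc, Aif1, Cd14, Tlr2 and Tlr4, were dim. The defining markers Cx3cr1, P2ry12, Tmem119 and Csf1r were clearly measured in every mouse, whereas Aif1, the gene of IBA1, lay between 5.95 and 6.17 on all 12 arrays. In such bulk tissue, fewer microglia and less RNA per microglial cell cannot be told apart.

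Promoters of the members were searched for 4 motifs in the 250 bases before the start of transcription, on both strands, in RefSeq sequence of GRCm38.p6. The table held 24 of the 33 genes. Cd68, P2ry13 and P2ry12 are shown. Cd68 rose and P2ry13 fell in SE under every alternative that kept the threshold of 0.05, and P2ry12 is the paralog of P2ry13. Sall1, which also fell under each of these alternatives, is not shown, and its windows held none of the 4 motifs. Cd14, which rose in each alternative that tested it, was not among the 24 genes. Capitals mark GAGGAA, the core that PU.1 can bind, TGANTCA, the AP-1 motif, and TGACGT, the CRE half-site. A match on the reverse strand appears as its reverse complement. The Cd68 window is chr11:69666171-69666420 on the minus strand, the P2ry13 window chr3:59210883-59211132 on the minus strand, and the P2ry12 window chr3:59262986-59263235 on the minus strand.
Cd68: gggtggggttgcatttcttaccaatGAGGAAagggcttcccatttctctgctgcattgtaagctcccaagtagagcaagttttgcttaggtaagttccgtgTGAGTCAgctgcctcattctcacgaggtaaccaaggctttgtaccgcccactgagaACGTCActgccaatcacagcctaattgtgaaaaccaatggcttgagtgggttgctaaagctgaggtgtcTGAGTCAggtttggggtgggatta
P2ry13: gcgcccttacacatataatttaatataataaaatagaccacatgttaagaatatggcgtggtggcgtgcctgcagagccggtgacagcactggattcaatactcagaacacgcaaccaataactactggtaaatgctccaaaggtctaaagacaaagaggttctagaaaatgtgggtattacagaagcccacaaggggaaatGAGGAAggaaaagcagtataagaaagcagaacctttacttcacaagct
P2ry12: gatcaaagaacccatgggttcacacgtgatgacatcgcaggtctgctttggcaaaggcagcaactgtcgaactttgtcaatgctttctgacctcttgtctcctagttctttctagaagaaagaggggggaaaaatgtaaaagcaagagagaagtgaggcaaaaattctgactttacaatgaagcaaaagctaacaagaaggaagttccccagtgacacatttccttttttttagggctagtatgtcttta

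The window of Cd68 held 2 AP-1 motifs, 1 PU.1 core and 1 CRE half-site. P2ry13 had 1 PU.1 core and P2ry12 had none of the 4 motifs. Among the 24 members in the table, 13 held the PU.1 core (54.2%), against 25.9% of 27025 genes. These 13 were Aif1, C1qb, C1qc, Cd53, Cd68, Ctss, Fcgr3, Fcrls, Itgam, Laptm5, P2ry13, Ptprc and Trem2. The AP-1 motif was found in Cd68 and Trem2 (8.33% of members, 7.82% of all genes) and the CRE half-site in Cd68 (4.17%, against 7.29%). The CArG box, the motif of SRF, was in 0 of 24 members and in 1.62% of all genes. A motif match is a description of letters and not a binding site.

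In heterozygous mice, 40 min of SE raised 2 of 13 activation genes, Cd14 and Cd68, and lowered 4 of 12 homeostatic genes, P2ry13, Sall1, P2ry12 and Cx3cr1, and 1 of 8 lineage genes, Irf8. The other 26 members did not pass the test (limma, adjusted p under 0.05, Benjamini-Hochberg over 23410 probe sets). Over all probe sets 5.08% were higher and 6.93% were lower, so that the share of higher members (2 of 33) was close to the background and that of lower members (5 of 33) exceeded it by a few genes. This excess did not hold without heterozygous control 1, control 3, SE mouse 1 or SE mouse 3 or with Xist as a covariate, where 2 of 33 were lower in each case, and 3 were lower without heterozygous control 2. In 2 members the SE mice were all above the controls and in 6 all below, whereas this held for 10.6% and 19.8% of all probe sets. The median log2 difference was -0.05 in homeostatic genes, -0.01 in lineage genes and 0.05 in activation genes, against -0.03 over all probe sets. By sign alone, 10 of 12 homeostatic genes were below 0 and 10 of 13 activation genes were above 0, whereas 61.2% of all probe sets were below 0. Genes of each list varied together between mice of a group (mean correlation of pairs of 0.38 and 0.25). Their signs are therefore not separate observations. Without heterozygous control 2 the median of activation genes was -0.02.

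Cd14, the coreceptor of Toll-like receptor 4 for lipopolysaccharide, had the largest difference of all members. Its level was 6.43, 6.51 and 6.39 (log2) in the 3 heterozygous controls and 6.99, 7.08 and 7.40 in the mice with SE. Every mouse with SE was above every control, with no overlap. Cd14 rose by 0.72 (log2), or 1.64-fold (standard error of 0.09 and adjusted p of 0.000132 by limma). Its probe set was below the array medians in controls.

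Cd68, which encodes a lysosomal glycoprotein of phagocytes, was at 8.22, 8.17 and 8.07 (log2) in controls and at 8.55, 8.44 and 8.37 in SE. The groups did not overlap. The rise was 0.30 (log2), or 1.23-fold (standard error of 0.06 and adjusted p of 0.00556 by limma). Of the 3 promoter windows printed above, that of Cd68 had the most motif matches, and a part of these motifs in the rise was not tested.

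P2ry13, an ADP receptor of resting microglia, had the largest decrease. Controls had levels of 9.48, 9.28 and 9.39 (log2), and mice with SE 8.72, 8.81 and 8.54. All 3 mice with SE were well below the lowest control. P2ry13 fell by 0.69 (log2, standard error of 0.10 and adjusted p of 0.000755 by limma), to 0.62 of the control level.

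P2ry12, its paralog and the receptor that guides microglial processes to ADP, fell less. Levels were 8.43, 8.38 and 8.35 (log2) in controls and 8.12, 8.17 and 8.19 in SE, with no overlap. The decrease was -0.23 (log2, standard error of 0.06 and adjusted p of 0.027 by limma). In the annotation P2ry12 and P2ry13 both overlap Med12l. The call of P2ry12 was lost when any 1 of the 6 heterozygous mice was left out, with adjusted p of 0.0545 to 0.0976.

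Sall1, a transcription factor that marks microglia among brain macrophages, had levels of 8.51, 8.28 and 8.36 (log2) in controls and 8.08, 8.07 and 8.03 in SE. The lowest control exceeded the highest SE mouse. Sall1 fell by 0.32 (log2, standard error of 0.07 and adjusted p of 0.00862 by limma).

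Cx3cr1, the receptor for the neuronal chemokine fractalkine, was at 9.27, 9.18 and 9.20 (log2) in controls and at 9.02, 9.07 and 8.99 in SE. There was no overlap, although the decrease was small at -0.19 (standard error of 0.05 and adjusted p of 0.0264 by limma). The adjusted p was 0.106 without heterozygous control 1, 0.0617 without control 3, 0.0704 without SE mouse 1 and 0.102 without SE mouse 3.

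Irf8, a transcription factor of the myeloid lineage, had levels of 7.75, 7.61 and 7.70 (log2) in controls and 7.26, 7.51 and 7.47 in SE. Irf8 fell by 0.27 (log2, standard error of 0.08 and adjusted p of 0.0436 by limma), with no overlap between the groups, and SE mouse 1 was the lowest. Without that mouse the difference was -0.20 with an adjusted p of 0.161. The adjusted p was 0.143, 0.0556 and 0.119 without heterozygous control 1, 2 and 3, 0.0692 without SE mouse 3, 0.0556 without mutant control 2 and 0.061 without pilocarpine-injected mutant 1. With Xist as a covariate for sex, Irf8, Cx3cr1 and P2ry12 were not called (adjusted p of 0.0732, 0.0506 and 0.0517), which left 2 members lower.

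**Figure D1:**
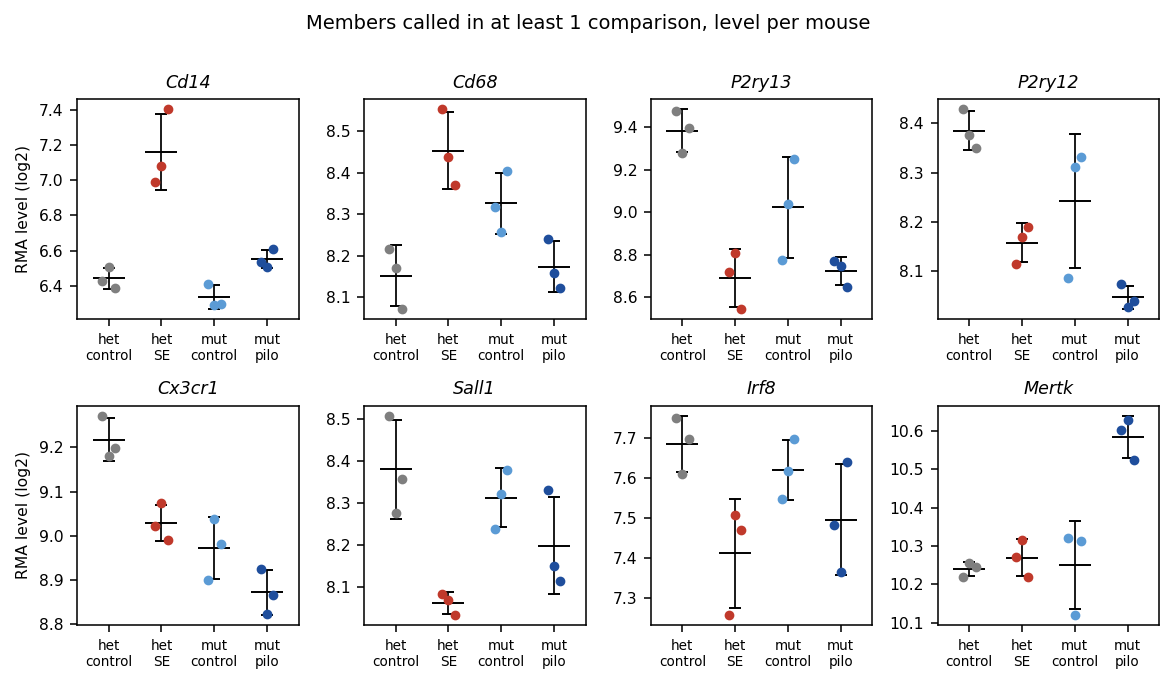
RMA level (log2, vertical axis) of the 8 members called in at least 1 comparison, by group (horizontal axis; het, heterozygous; mut, Srf mutant; pilo, pilocarpine without SE). Each point is a mouse, and bars give the mean and SD of 3 mice; Cd14 of the mice with SE lay between 6.99 and 7.40, above all other mice, and Mertk of mutants with pilocarpine between 10.52 and 10.63.

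The remaining defining genes of microglia gave other values in SE. Tmem119, a surface protein of resident microglia, was at 9.33, 9.14 and 9.28 (log2) in controls and at 9.23, 9.22 and 9.17 in SE. The difference of -0.04 had a 95% interval of -0.25 to 0.16. Csf1r differed by 0.01, with an interval of -0.12 to 0.14. For Aif1 the levels were 6.07, 6.11 and 6.10 in controls and 5.97, 5.96 and 6.17 in SE, and the groups overlapped. Its difference was -0.06 (interval -0.18 to 0.07). The other homeostatic genes, which include the Fc receptor-like gene Fcrls, the lectin gene Siglech, the selectin ligand gene Selplg, Olfml3, the phagocytic receptor gene Mertk and the integrin gene Itgb5, differed by -0.12 to 0.03 and were not called.

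Among lineage genes, Ly86, which encodes the MD-1 protein bound to the receptor CD180, had levels of 9.99, 9.75 and 9.97 (log2) in controls and 9.51, 9.56 and 9.56 in SE. The groups did not overlap, but the difference of -0.36 did not pass the test (standard error of 0.12 and adjusted p of 0.0701 by limma). Spi1 differed by -0.11 (standard error 0.07, adjusted p = 0.334) and Itgam, the CD11b integrin gene, by 0.06 (standard error 0.12, adjusted p = 0.824). Ptprc, Laptm5 and Cd53 differed by 0.03 to 0.05 and overlapped between the groups.

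Trem2, a receptor for lipids and debris, was at 8.52, 8.19 and 8.43 (log2) in controls and at 8.07, 8.43 and 8.28 in SE. Its difference of -0.12 was within the spread of the mice (standard error of 0.11 and adjusted p of 0.579 by limma). Tyrobp, the adaptor of TREM2, differed by -0.01 and Fcer1g, an adaptor of Fc receptors, by -0.05. The C1q genes C1qa, C1qb and C1qc, which start the classical complement cascade, differed by 0.02 to 0.05, and the widest of their 95% intervals was -0.14 to 0.24. Fcgr3, a low-affinity Fc receptor, differed by 0.24 (standard error 0.12, adjusted p = 0.256). Tlr2, Tlr4, Ctss, which encodes the protease cathepsin S, and the UDP receptor gene P2ry6 differed by 0.03 to 0.10 and were not called. A p above the threshold does not show that these genes were unchanged.

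**Figure D2:**
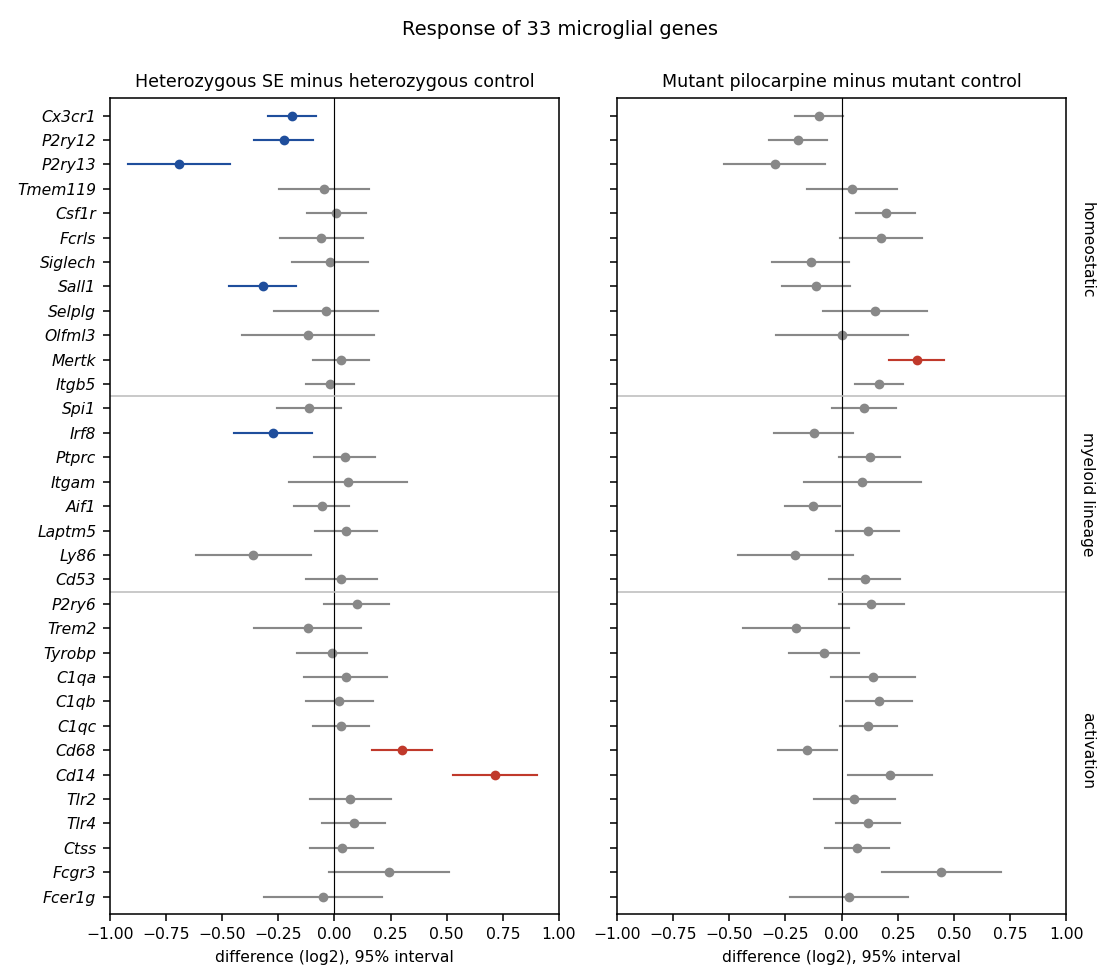
Log2 difference of the 33 members in heterozygous SE against heterozygous control (left) and in pilocarpine-injected mutants against mutant control (right), with 95% intervals from limma (3 mice per group). Red marks genes called higher, blue genes called lower and grey genes not called; 2 members were higher and 5 lower on the left, and Mertk was higher on the right.

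In Srf mutants, pilocarpine without SE raised 1 of the 33 genes and lowered 0. At an unadjusted p under 0.05 there were 10, against 14.8% of all probe sets. Over all probe sets 0.871% were higher and 0.965% were lower (1.84% in all), and 1 gene is not a result about the group. The injected mutants were all above their controls in 7 of 33 members and all below in 5 of 33, against 7.04% and 11.4% of all probe sets. The gene was Mertk, a receptor for the removal of apoptotic cells. Its level was 10.32, 10.12 and 10.31 (log2) in mutant controls and 10.60, 10.63 and 10.52 in mutants with pilocarpine, with no overlap. Mertk rose by 0.33 (log2, standard error of 0.06 and adjusted p of 0.011 by limma), and heterozygous mice had 10.22, 10.26 and 10.24 without and 10.27, 10.32 and 10.22 with SE. The adjusted p was 0.0539 without pilocarpine-injected mutant 1 and 0.0597 without mutant 2, and 0.0832 when the fit held just the mutants. The count was then 0, and it was 2 without mutant control 3, where Fcgr3 was also called.

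Median differences in the mutants were 0.02 in homeostatic, 0.10 in lineage and 0.12 in activation genes, against -0.0036 over all probe sets. Of the genes that fell in heterozygous SE, P2ry13 was at 8.78, 9.04 and 9.25 (log2) in mutant controls and at 8.77, 8.75 and 8.65 with pilocarpine. These groups were apart by little, and the difference of -0.30 was not called (standard error 0.10, adjusted p = 0.184). P2ry12 was at 8.09, 8.31 and 8.33 in mutant controls and at 8.07, 8.03 and 8.04 with pilocarpine, a difference of -0.20 (standard error 0.06, adjusted p = 0.131). Without mutant control 1, which was the lowest of its group for both receptors, P2ry12 was called with -0.27 and an adjusted p of 0.0193, so that 1 member was then lower. Csf1r was higher in each injected mutant, with a difference of 0.20 that was not called (standard error 0.06, adjusted p = 0.131).

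Cd14 was at 6.41, 6.29 and 6.30 (log2) in mutant controls and at 6.54, 6.51 and 6.61 with pilocarpine. The groups did not overlap, and the difference of 0.22 was not called (standard error 0.09, adjusted p = 0.258). Cd68 went the other way, from 8.32, 8.26 and 8.40 to 8.24, 8.16 and 8.12, a difference of -0.15 (standard error 0.06, adjusted p = 0.256). Fcgr3 had the largest difference among the mutants, with 7.20, 7.24 and 7.55 in controls and 7.77, 7.80 and 7.75 with pilocarpine. Its 0.44 did not pass the test (standard error of 0.12 and adjusted p of 0.0919 by limma).

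Cx3cr1 had levels of 8.90, 9.04 and 8.98 (log2) in mutant controls and 8.93, 8.82 and 8.87 with pilocarpine, which overlapped. Sall1 was at 8.24, 8.32 and 8.38 without and at 8.33, 8.15 and 8.11 with pilocarpine, and Irf8 at 7.55, 7.62 and 7.70 without and 7.48, 7.37 and 7.64 with it. Both overlapped between the groups. Trem2 was at 7.98, 8.10 and 8.13 in mutant controls and at 7.76, 7.76 and 8.06 with pilocarpine, a difference of -0.20 (standard error 0.11, adjusted p = 0.421). Tmem119 was at 9.08, 9.14 and 9.50 in mutant controls and at 9.29, 9.35 and 9.22 with pilocarpine. For Aif1 the levels were 6.12, 6.06 and 6.15 without and 5.96, 6.03 and 5.95 with pilocarpine, a difference of -0.13 (standard error 0.06, adjusted p = 0.308). Also not called were C1qb at 0.17 (adjusted p = 0.275) and, in the lineage group, Ly86 at -0.21 (adjusted p = 0.461), Ptprc at 0.13 (adjusted p = 0.384) and Irf8 at -0.12 (adjusted p = 0.518).

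The test of the difference between the responses, mutant minus heterozygous, called Cd68 and Cd14. Both were lower, and over all probe sets 2.12% were lower and 1.47% higher (3.59% in all). For Cd68 the responses of 0.30 in heterozygous mice and -0.15 in mutants differed by -0.45 (log2, standard error of 0.09 and adjusted p of 0.0112 by limma). For Cd14 the responses of 0.72 and 0.22 differed by -0.50 (standard error of 0.12 and adjusted p of 0.0429 by limma). The call of Cd14 was lost when any 1 of the 6 mutants or of the 3 heterozygous controls was left out, with adjusted p of 0.0537 to 0.111. Then 1 member was lower, Cd68. Mertk differed by 0.30 (standard error of 0.08 and adjusted p of 0.0603 by limma) and was called without mutant control 3 (adjusted p = 0.0479), as was P2ry13 (adjusted p = 0.0491), so that 2 members were then higher in place of 0. With all 12 mice, P2ry13 differed by 0.39 (standard error 0.15, adjusted p = 0.195). Its mean was 9.38 in heterozygous and 9.02 in mutant controls, and 8.69 in SE and 8.72 in injected mutants. For Cd68 the means were 8.15 and 8.33 in these controls, and 8.45 in SE and 8.17 in injected mutants. The control means of these 2 genes were unequal, but neither gene was called between the controls by limma. Fcrls (0.23), Sall1 (0.20), Spi1 (0.21), Ly86 (0.16), Irf8 (0.15), Ptprc (0.08), Fcgr3 (0.20) and C1qb (0.14) had adjusted p of 0.275 to 0.741. The difference between the responses shares its mice with the comparisons above and is no independent result.

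Without seizures, 0 of the 33 genes differed between Srf mutants and heterozygous mice at an adjusted p under 0.05 from limma, and 5 did at an unadjusted p under 0.05, against 8.73% of all probe sets. Over all probe sets 0.0384% were higher and 0.0812% were lower. Of the 33 members, 27 had a difference below 0, against 54.0% of all probe sets. The members varied together between mice of a group (mean correlation of pairs of 0.32), so that their signs are not separate observations. Medians were -0.07 in homeostatic, -0.06 in lineage and -0.04 in activation genes and -0.01 over all probe sets. P2ry13 was lower by -0.36 (standard error 0.10, adjusted p = 0.405), Trem2 by -0.31 (standard error 0.11, adjusted p = 0.476) and Cx3cr1 by -0.24 (standard error 0.05, adjusted p = 0.151). For these 3 genes and P2ry12 every mutant control was below every heterozygous control (4 of 33 members, against 7.46% of all probe sets). Cd68 differed by 0.17 (standard error 0.06, adjusted p = 0.478), and each mutant control was above each heterozygous control (1 of 33 members, against 6.10% of all probe sets). Other differences that were not called were found for P2ry12 (-0.14), Fcrls (-0.13), Fcgr3 (-0.13), Tyrobp (-0.11), Ly86 (-0.23), Itgam (-0.16), Spi1 (-0.14) and Irf8 (-0.06).

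**Figure D3:**
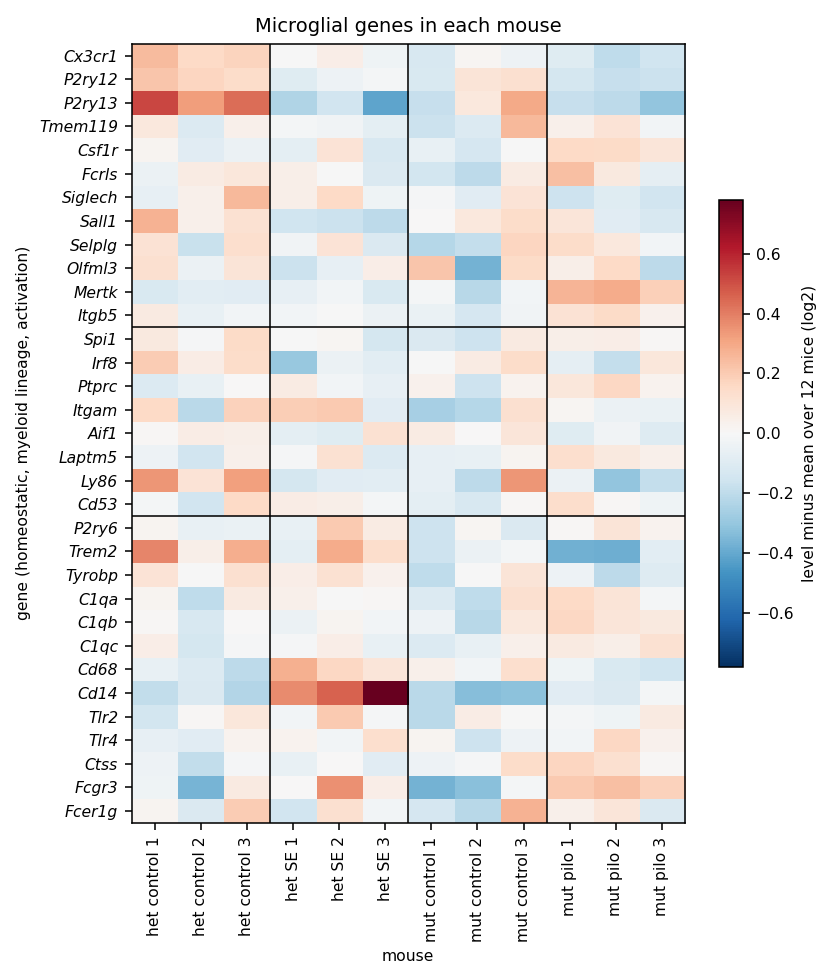
Level of each of the 33 members (rows, ordered as homeostatic, myeloid lineage and activation genes) in each of the 12 mice (columns), as the log2 level minus the gene's mean over all mice; red is above and blue below the mean. P2ry13 is red in the 3 heterozygous controls and Cd14 in the 3 mice with SE, while 25 of 33 genes are highest in mutant control 3 among the mutant controls.

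Mice of the same group differed in many members at once. Without mutant control 3 the median difference between the controls was -0.14 in homeostatic genes. The mean of the 12 homeostatic genes, each centred on its mean over all mice, was 0.08 ± 0.06 (log2, SD, n = 3) in heterozygous controls and -0.06 ± 0.05 in SE. In mutants it was -0.02 ± 0.11 without and -0.004 ± 0.063 with pilocarpine. Activation genes had means of -0.03 ± 0.07 in heterozygous controls, 0.09 ± 0.06 in SE, -0.07 ± 0.09 in mutant controls and 0.01 ± 0.01 with pilocarpine. The ranges of heterozygous controls and SE mice did not meet for homeostatic genes (0.02 to 0.12 against -0.10 to -0.004). For activation genes they overlapped slightly (-0.11 to 0.03 against 0.03 to 0.15). These means include the called genes. The 4 homeostatic genes called lower differed by -0.69 (P2ry13) to -0.19 (Cx3cr1) in SE. The 8 not called differed by -0.12 to 0.03, against a median of -0.03 over all probe sets. The activation mean includes Cd14, at 0.72, and Cd68, both called higher. Heterozygous control 2 was the lowest control in 24 of the 33 genes, and mutant control 3 was the highest mutant control in 25. Without heterozygous control 2, the median difference in SE was -0.12 in homeostatic and -0.02 in activation genes, so that the sign of the latter turned.

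**Figure D4:**
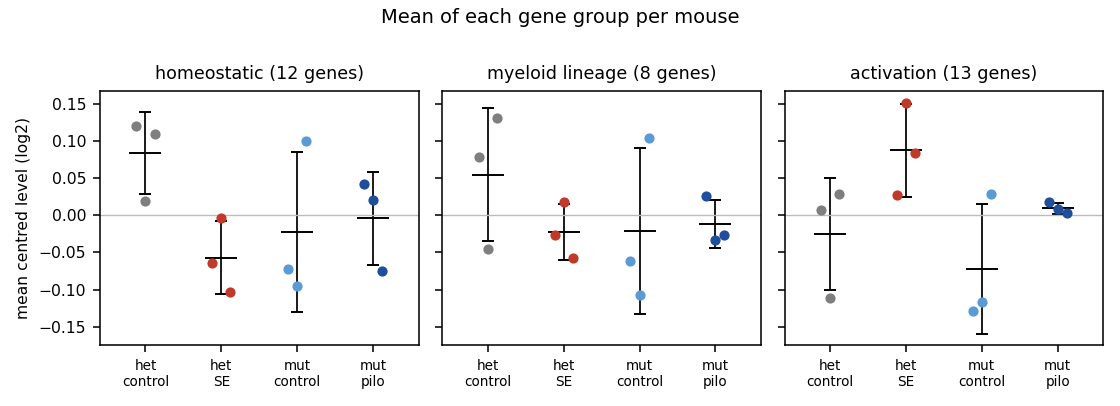
Mean centred level (log2, vertical axis) of the 12 homeostatic, 8 lineage and 13 activation genes in each mouse, by group (horizontal axis; het, heterozygous; mut, Srf mutant; pilo, pilocarpine without SE). Each point is a mouse, and bars give the mean and SD of 3 mice. The homeostatic mean of SE mice is at -0.004 or below and that of heterozygous controls at 0.02 or above. These 12 genes include the 4 called lower in SE, among them P2ry13 with a difference of -0.69.

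After the group means were removed, members still varied together across the 12 arrays. The mean correlation of pairs was 0.32 among the 33 genes, 0.38 among homeostatic, 0.33 among lineage and 0.25 among activation genes, and 0.01 among all probe sets. These arrays share their hybridization and normalization, and the correlations are descriptions. The highest was 0.96 between Selplg and Ctss. Selplg had the highest mean correlation with the other members (0.56), and Cd14 the lowest (-0.25). Markers of other cell types had 0.86 in oligodendrocytes, 0.65 in endothelium and 0.50 in perivascular macrophages, and between -0.07 and 0.15 in astrocytes, neurons, lymphocytes, monocytes and neutrophils, choroid plexus and red blood cells.

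Partners of the members were taken from lists of known microglial signalling, of which 87 of 96 genes were measured. The lists were chosen with earlier results of these data known, so that their counts are descriptions. In heterozygous SE, where 5.08% of all probe sets were higher and 6.93% lower, 2 of 10 signals to microglia rose, Cx3cl1, the fractalkine that binds CX3CR1, and Tgfb1, which maintains microglial identity. Cx3cl1 rose by 0.21 (log2, standard error 0.05, adjusted p = 0.0134), a call lost without heterozygous control 2 or SE mouse 3 (adjusted p 0.0569 and 0.0579). Tgfb1 rose by 0.26 (standard error 0.05, adjusted p = 0.00498), and its receptor gene Tgfbr2 fell by 0.26 (standard error 0.05, adjusted p = 0.00686). Of 17 receptor partners, 1 rose, Inpp5d, which encodes the phosphatase SHIP1 (0.31, standard error 0.05, adjusted p = 0.00241), and the other that fell beside Tgfbr2 was Cd180. Cd180, the partner of Ly86, fell by 0.49 (standard error 0.11, adjusted p = 0.00953), from 7.19, 6.92 and 7.02 in controls to 6.65, 6.61 and 6.40 in SE.

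Of 21 genes of the Toll-like receptor pathway, 5 rose and 1 fell in heterozygous SE (all probe sets, 5.08% and 6.93%). Nfkbiz, an inducible regulator of NF-kappaB, rose by 1.18 (log2, standard error 0.09, adjusted p = 1.88e-06), from 7.25, 7.10 and 7.23 to 8.54, 8.41 and 8.16. Tlr13, an endosomal receptor of bacterial RNA, rose by 0.57 (standard error 0.08, adjusted p = 0.000549), the kinase gene Irak2 by 0.57 (adjusted p = 8.71e-05) and Tnfaip3, an NF-kappaB inhibitor, by 0.42 (adjusted p = 0.00253). Of 10 complement genes 2 rose and 0 fell. C3ar1, the receptor of C3a, went from 7.09, 7.18 and 6.90 to 7.62, 8.15 and 7.88 without overlap, a rise of 0.83 (standard error 0.12, adjusted p = 0.000563). C5ar1 rose by 0.34 (standard error 0.08, adjusted p = 0.0139), with adjusted p of 0.0553, 0.0528 and 0.0656 without heterozygous control 1, control 2 and SE mouse 3. Of 14 genes of early inflammatory output 6 rose and 0 fell, led by Ptgs2, and the chemokine gene Ccl2 among them went from 6.28, 6.37 and 6.38 to 7.71, 7.34 and 8.26. Many of these genes are also used by neurons and other cells of the hippocampus. Of 15 genes of disease-associated microglia, such as Apoe, Cst7 and Lpl, 0 were called and 2 had an unadjusted p under 0.05, against 23.8% of all probe sets.

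In mutants with pilocarpine, 1 of 10 signals rose (Tgfb1, 0.23, adjusted p = 0.0464), as did 2 of 21 Toll-like receptor pathway genes (Irak2, 0.73, adjusted p = 0.00012, and Tnfaip3, 0.42, adjusted p = 0.016), where 0.871% of all probe sets were higher and 0.965% lower. The adjusted p of Tnfaip3 was 0.055 without mutant control 2, 0.0679 and 0.0537 without pilocarpine-injected mutant 1 and 2, and 0.0674 when the fit held just the mutants. The call of Tgfb1 was lost when any 1 mouse other than mutant control 3 or heterozygous control 3 was left out, with adjusted p of 0.0579 to 0.134. Tlr3, a receptor of double-stranded RNA, fell by 0.40 (standard error 0.06, adjusted p = 0.00936), from 8.15, 8.15 and 8.21 to 7.74, 7.83 and 7.76. Complement, receptor partner and disease-associated genes had 0 calls by limma, with 1, 1 and 1 at an unadjusted p under 0.05, against 14.8% of all probe sets. Of 14 early inflammatory genes 4 rose, among them Ccl2 by 1.91 (standard error 0.16, adjusted p = 7.94e-05) and Icam1, an adhesion molecule gene, by 0.45 (adjusted p = 0.0366). The call of Icam1 was lost when any 1 of the mutants other than mutant control 3, any heterozygous control or SE mouse 3 was left out, with adjusted p of 0.0511 to 0.123.

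The responses differed between the genotypes for Nfkbiz (mutant minus heterozygous -1.05, standard error 0.12, adjusted p = 0.000374) and C3ar1 (-0.77, standard error 0.17, adjusted p = 0.0255). The difference of C3ar1 had adjusted p of 0.0577, 0.0637, 0.0733, 0.0716 and 0.0597 without mutant control 1, mutant control 2, pilocarpine-injected mutant 1, heterozygous control 3 and SE mouse 3. In the mutants, C3ar1 was at 7.27, 7.42 and 7.10 (log2) without and at 7.28, 7.39 and 7.30 with pilocarpine. Tlr13 differed by -0.46 (adjusted p = 0.051) and was not called. Irak2 and Ccl2 differed by 0.16 and 0.48 and were not called either.

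**Figure D5:**
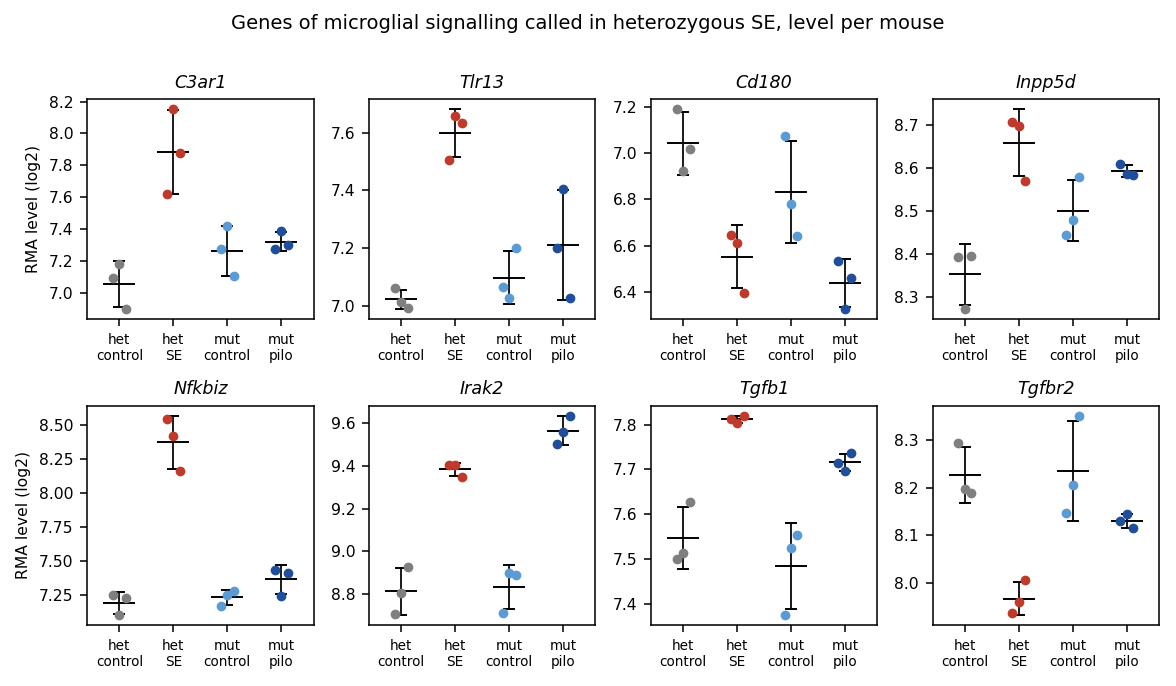
RMA level (log2, vertical axis) of 8 genes of microglial signalling that were called in heterozygous SE, by group (horizontal axis; het, heterozygous; mut, Srf mutant; pilo, pilocarpine without SE). Each point is a mouse, and bars give the mean and SD of 3 mice; C3ar1 lay between 7.62 and 8.15 in the 3 mice with SE and at 7.42 or less in all other mice.

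Markers of other cells that could hold these genes were compared in the same tests. Of 9 monocyte and neutrophil markers, 8 lymphocyte markers and 8 perivascular macrophage markers, 0 were called in any of the 4 comparisons by limma. In heterozygous SE 2, 0 and 0 of them had an unadjusted p under 0.05, against 23.8% of all probe sets. The mean level of monocyte and neutrophil markers was 5.53 to 5.64 (log2) in heterozygous controls and 5.50 to 5.61 in SE, below the median of the arrays. Of 7 endothelial markers, Tek, the angiopoietin receptor gene, fell by 0.45 in SE (standard error 0.11, adjusted p = 0.0227), from 7.95, 7.95 and 7.81 to 7.60, 7.15 and 7.63. The adjusted p of Tek was 0.0758 and 0.0762 without heterozygous control 1 and 2. The mean of the endothelial markers was lowest in SE mouse 2, at -0.45 after centring, against 0.09 and 0.10 in the other SE mice. Without that mouse 2 members were higher and 4 lower in SE. Oligodendrocyte markers had 0 of 7 calls in mutants with pilocarpine by limma, but 4 had an unadjusted p under 0.05 (14.8% of all probe sets) and all 7 a difference below 0 (51.8% of all probe sets), with a median of -0.24. Their mean after centring was -0.39, -0.06 and 0.07 in injected mutants 1, 2 and 3, against 0.09 to 0.14 in mutant controls. These 7 markers varied together (mean correlation of 0.86), so that their signs are not separate observations. The part of endothelial and oligodendrocyte RNA in the microglial values was not tested.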

How the data were processed

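Hippocampal total RNA was hybridized to Affymetrix Mouse Gene ST arrays. The authors used Affymetrix Expression Console and deposited log2 values from robust multiarray average (RMA), a method that corrects the background, quantile-normalizes the arrays and summarizes probes to probe sets. Replicates were not pooled. Quantile normalization forces all arrays to 1 distribution, so that levels are relative. Tests covered the 23410 of 35556 probe sets for which the platform annotation names a gene. The tool was limma 3.58.1 (R 4.3.3), with a mean for each of 4 groups, no block, and a spread shared by all 12 arrays. Benjamini-Hochberg adjustment ran over all 23410, and calls were made under 0.05. All 33 members were found by Entrez identifier, and 0 symbols changed; in the annotation 9 overlap another gene. Precision is limited by 3 arrays per group. The fit was tested on simulated data.

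The members and gene lists were chosen with earlier results of these data known. Statistics are given for every member called and, where fewer than 4 of a list were called, for those with the largest difference, up to 4 per list and comparison. Values per mouse are given for called members and for Cx3cr1, P2ry12, Tmem119, Aif1 and Trem2, and for some others whose groups are compared in the text. Partners were named from the lists, at most 4 called genes per list and comparison. Alternatives covered the variance prior, dim probe sets, array centring, quantile normalization, the arrays in the fit, array weights, the probe sets per gene, all probe sets, a block by animal number, Xist as a covariate, a stricter threshold and leaving out each array. Python 3.11.15 with pandas 2.3.3 read the promoters. Arrays of mutants that reached SE were not analysed here.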

Additional observations from a re-analysis of the deposited data

Results flagged for a closer look

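The response to pilocarpine differed between mutants without SE and heterozygous mice with SE for 2 of 33 members and 6 of 87 partners. These calls are from limma's test of the difference, which called 3.59% of all probe sets (2.12% lower). Mutant minus heterozygous, the difference was -0.45 (log2) for Cd68 and -0.50 for Cd14. It was -0.37 for Tlr3, -1.05 for Nfkbiz and -0.77 for C3ar1. For the inflammatory genes it was -1.12 for Il1a, -2.06 for Ccl3 and -1.94 for Ptgs2. The mutants had no SE, so that genotype and SE cannot be told apart in these values. Tlr3 was called lower in the mutants and not in heterozygous mice, where its difference was -0.02. The call of Tlr3 in the difference between the responses was lost in 16 of 21 alternatives (adjusted p up to 0.118), that of C3ar1 in 6 of 21 (up to 0.0733) and that of Cd14 in 12 of 20 (up to 0.111), while Nfkbiz, Ccl3, Ptgs2 and Cd68 kept theirs in 21 of 21 and Il1a in 20 of 20.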

How the results depend on the processing

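Over the alternatives, 0 calls reversed. In heterozygous SE, P2ry13, Sall1 and Cd68 kept their call in 22 of 22 alternatives at an adjusted p under 0.05 and Cd14 in 21 of 21, while Cx3cr1 kept it in 16, P2ry12 in 15 and Irf8 in 11 of 22; the cause was not tested. Members lower in SE numbered 2 with Xist as a covariate (P2ry13 and Sall1) and 2 to 6 when 1 array was left out, and members higher 1 without dim probe sets, where Cd14 is not tested. In mutants with pilocarpine, 0 were higher when the fit held just the 2 groups compared, and 0 to 2 were higher and 0 to 1 lower when 1 array was left out. In the test of the difference between the responses, 1 was higher (Mertk) with a variance trend, without dim probe sets, after repeated quantile normalization and with array weights, and 0 to 2 when 1 array was left out; 1 was lower (Cd68) without dim probe sets, with all probe sets, with the replicate block and with Xist as a covariate, and 1 to 2 when 1 array was left out. At an adjusted p under 0.001 with a 2-fold change, 0 members were called in any comparison. The median of homeostatic genes was -0.12 to -0.02 in heterozygous SE, -0.036 to 0.13 in mutants with pilocarpine and -0.14 to -0.042 between the controls when 1 array was left out; that of activation genes in SE was -0.023 to 0.0895.

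Arrays with the same animal number had r of -0.31 to 0.32 over 18 pairs (median of 0.02, 5 above 0.1). Arrays with different numbers had r of -0.44 to 0.39 over 36 pairs (median of -0.02, 12 above 0.1). With so few arrays per group and such overlapping ranges, this check cannot decide whether the numbers pair mice. With animal number as a block, Cx3cr1 (adjusted p = 0.0528), Tgfb1 in mutants with pilocarpine (0.0549) and the differences between the responses of Cd14 (0.0658) and Tlr3 (0.0696) were not called. Of the members, 5 had a mean below the median of the arrays, and their values rest on dim probe sets.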
